A study of Homo sapiens with 20 samples.

Results

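The nuclear genes for subunits of the oxidative phosphorylation system were examined in lines of T-ALL (acute lymphoblastic leukemia of the T lineage) after inhibition of gamma-secretase. Members were chosen by gene symbol in the array's annotation: every symbol starting with NDUFA, NDUFB, NDUFC, NDUFS, NDUFV, UQCR, COX4I, COX5, COX6, COX7, COX8, ATP5F, ATP5M or ATP5P, and in addition SDHA, SDHB, SDHC, SDHD and CYC1. This name rule took in 73 of 11963 named genes. They were 28 subunit genes of complex I, 3 of complex II, 7 of complex III, 13 of complex IV and 15 of complex V, 5 complex I assembly factors (NDUFAF genes), the pseudogene ATP5MC2P1 and the antisense gene NDUFB2-AS1. Probe sets that the annotation assigns to several genes were not named and belong to no member.

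Expression was measured on 20 Affymetrix arrays of 10 established lines, all carrying activating NOTCH1 mutations per the series' description: RPMI8402, KOPTK1, P12-ICHIKAWA, DND41, CUTLL1, PF382, HPB-ALL, MOLT3, CCRF-CEM and ALL-SIL. There was 1 DMSO (vehicle) array per line and 1 of cells given CompE, a gamma-secretase inhibitor, at 100 nM, both for 72 h. The labels of 6 CompE arrays name the inhibitor without its dose, which then comes from the series' description, and the DMSO labels of CCRF-CEM, MOLT3 and P12-ICHIKAWA give the culture medium another name than their CompE labels. The comparison shows how transcripts of the respiratory chain respond when the cleavage that activates NOTCH is blocked. A bulk array cannot tell fewer expressing cells from less RNA per cell.

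Oxidative phosphorylation is the main route of ATP synthesis in mitochondria. Complexes I and II pass electrons from NADH and succinate to ubiquinone, complex III hands them on to cytochrome c, and complex IV reduces oxygen with them. Complexes I, III and IV pump protons across the inner membrane, and complex V, the ATP synthase, uses the gradient to make ATP. Most subunits are encoded in the nucleus and imported, and a small set is encoded in mitochondrial DNA. In T-ALL, NOTCH1 signalling drives MYC, and both are known for sustaining the growth and metabolism of these cells.

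Signals are the deposited MAS5 intensities, whose trimmed mean is 250 on every array. Changes are CompE minus DMSO on the scale log2(signal + 16), fitted in limma with cell line as a block, and a gene was called at a Benjamini-Hochberg adjusted p under 0.05 over 7695 genes. The NOTCH-induced repressor HES1 had a change of -1.71, the receptor NOTCH3 one of -1.34 and MYC one of -1.50, and all passed. HES1 was lower in 10 lines, least in ALL-SIL (-0.28) and P12-ICHIKAWA (-0.40). NOTCH3 and MYC were lower in 9 each, and MYC changed by 0.53 in P12-ICHIKAWA. All 8 T-lineage markers examined were tested, with summed signals of 9006 to 18551 in DMSO and 9080 to 21129 in CompE (LCK higher and CD3G lower were called). Summed signals of 4 myeloid markers were 26.7 to 64.9 and 18.2 to 71.6, those of 3 named erythroid markers 17.8 to 61.9 and 31.1 to 151, and none of these was bright enough for testing. B-cell markers summed to 49.1 to 2523 and 63.2 to 1847, and neither of the tested ones was called. The ratio of 3' to 5' ACTB signal, which rises with RNA degradation, was 3.32 in DMSO and 9.76 in CompE in KOPTK1. Its log2 change lay between -0.05 and 0.54 in the other lines. Values of KOPTK1, or fits without it, are therefore given for a number of genes.

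Of the 73 members, 69 were bright enough to be tested. The exceptions were COX6A2 (signals of 2.06 to 73.4), COX7A1 (2.13 to 8.31), NDUFAF5 (1.77 to 44.8) and NDUFB2-AS1 (2.97 to 94.4). COX6A2 and COX7A1 encode the forms of complex IV subunits found in heart and skeletal muscle. Under CompE, 5 of 69 members fell and 0 rose, against 3.24% of all tested genes called lower and 3.94% called higher (7.17% in either direction). The 5 were CYC1 of complex III, the assembly factor NDUFAF4, NDUFS4 and NDUFAB1 of complex I, and ATP5MC1 of complex V. An unadjusted p under 0.05 was reached by 22 members in the lower and 1 in the higher direction, against 764 (9.93%) and 1170 (15.2%) of 7695 genes.

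Changes were small and mostly in one direction. Of the 64 tested subunit genes of complexes I to V, 52 had a change below 0, whereas 3159 of 7695 genes did. Their median change was -0.11, with a lowest value of -0.40 (CYC1) and a highest of 0.20 (ATP5MG). The median of all genes was 0.04. All genes were not matched to the subunit genes for brightness. The share of all genes below 0 was 41.1%, and it was 34.4% with no filter on dim genes and 44.2% with a filter at the 60th percentile. With each array centred on its median, 60 of 64 subunit genes lay below 0, and 9 members were called lower and 0 higher. The same centring turned the split of all called genes from 249 lower and 303 higher to 340 lower and 116 higher. By complex, the median change was -0.15 for complex I, -0.18 for complex II, -0.13 for complex III, -0.05 for complex IV and -0.06 for complex V. These medians describe the lists and were not tested against each other. That of complex II rests on 3 genes and was -0.02 with the mean of all probe sets of a gene, where SDHD was at -0.02 and SDHC at -0.36.

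**Figure D1:**
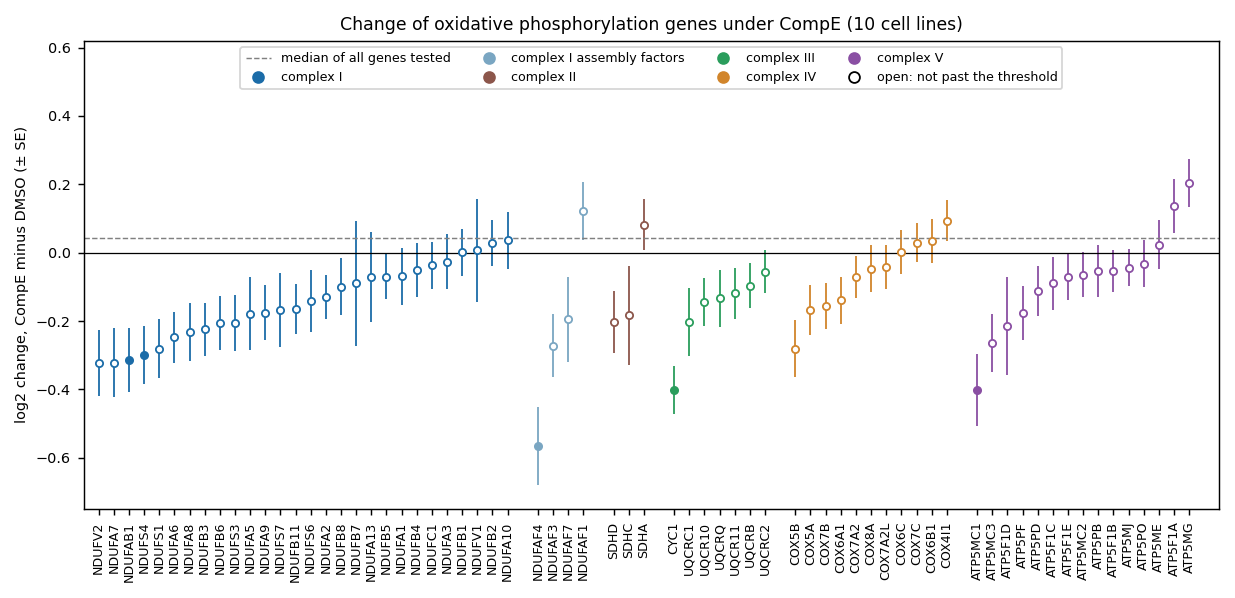
Fitted log2 change (CompE minus DMSO, ± SE, n = 10 lines) of the tested subunit genes and assembly factors, sorted within each complex; filled points passed the limma threshold and the dashed line is the median of all genes. All 7 genes of complex III lie below 0, and the lowest value is -0.56 for NDUFAF4.

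Complex I had 2 called genes among 28, both lower, and 24 of 28 changes lay below 0. NDUFS4, an accessory subunit whose loss causes a form of Leigh syndrome in humans, ranged from 940 to 1425 in DMSO (median 1175) and from 803 to 1149 in CompE (median 1007). The groups overlapped, but the signal was lower in 9 of 10 lines, ALL-SIL being the exception. NDUFS4 fell by 0.30 ± 0.085 log2 units (SE over 10 pairs, limma adjusted p = 0.0438). Its lowest change, -0.76, was in KOPTK1, and without that line it was at -0.25 ± 0.075 (limma adjusted p = 0.0387, n = 9 lines). NDUFAB1, the mitochondrial acyl carrier protein that is also a subunit of complex I, ranged from 2100 to 3129 in DMSO (median 2729) and from 1386 to 3007 in CompE (median 2140). It was lower in all lines but MOLT3 and fell by 0.31 ± 0.092 (limma adjusted p = 0.0497), the called member nearest to the threshold.

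Several further complex I genes stood just outside the threshold. NDUFA6 was at -0.25 ± 0.074 (limma adjusted p = 0.0531). NDUFS1 and NDUFV2, iron-sulfur subunits of the arm that oxidises NADH, were at -0.28 ± 0.085 and -0.32 ± 0.098 (limma adjusted p = 0.0552 for both), each lower in 9 lines. The lowest change was in KOPTK1 for NDUFA6 (-0.50) and NDUFS1 (-0.64) and in MOLT3 for NDUFV2 (-0.99). NDUFA7 was at -0.32 ± 0.100 (limma adjusted p = 0.0595), also lower in 9 lines. For 7 subunits of that arm (NDUFS1, NDUFS4, NDUFS6, NDUFV1, NDUFV2, NDUFA2 and NDUFA7), grouped after their values were seen, the median change was -0.28 and 1 was called. NDUFV1, which binds the flavin that accepts electrons from NADH, was at 0.01 ± 0.149, which joined a change of 1.55 in KOPTK1 with changes of -0.47 to 0.13 in the other 9 lines, 7 of them below 0. The 9 NDUFB subunits, part of the membrane arm, had a median of -0.09 and 0 calls. At the upper end of complex I were NDUFA10 at 0.04 ± 0.084 and NDUFB2 at 0.03 ± 0.068.

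Among the complex I assembly factors, which help to build the complex without staying in it, NDUFAF4 had the largest change of all members. Its signal was 537 to 1358 in DMSO (median 772) and 261 to 917 in CompE (median 509). It was lower in all 10 lines, with a change of -1.13 in DND41 at one end and -0.07 in PF382 at the other. NDUFAF4 fell by 0.56 ± 0.114 (SE, n = 10 pairs, limma adjusted p = 0.0127). NDUFAF3 was also lower in all 10 lines, from a median of 593 to one of 513, at -0.27 ± 0.092, but did not pass (limma adjusted p = 0.081). NDUFAF7 was at -0.19 ± 0.124 and NDUFAF1 at 0.12 ± 0.085, the latter higher in 9 lines. The 4 tested factors thus ran from the lowest value among all members to the highest outside complex V.

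Complex II, the only complex that is also an enzyme of the citric acid cycle, had 0 called genes of 3. SDHD, a membrane anchor, was at -0.20 ± 0.090 (limma adjusted p = 0.173), with its lowest change, -0.70, in KOPTK1. SDHC, the other anchor, was at -0.18 ± 0.145 (limma adjusted p = 0.453), but this value joined opposite lines. In KOPTK1 its signal was 136 in DMSO and the change was 1.16, while it was lower in 8 of the other 9 lines; without KOPTK1 it fell by 0.33 ± 0.094 (limma adjusted p = 0.0299, n = 9 lines). SDHA, the flavoprotein that oxidises succinate, was at 0.08 ± 0.074 (limma adjusted p = 0.53). SDHB was not analysed here.

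In complex III, 1 of 7 genes was called. CYC1 encodes cytochrome c1, the subunit that passes electrons to cytochrome c. Its DMSO signal was 2561 in CCRF-CEM, 2507 in ALL-SIL, 2131 in RPMI8402, 1761 in DND41, 1704 in HPB-ALL, 1609 in P12-ICHIKAWA, 1469 in MOLT3, 1034 in CUTLL1, 944 in PF382 and 782 in KOPTK1. In CompE it was 1924, 1964, 1517, 1239, 1135, 1531, 1198, 826, 740 and 486 in the same order of lines. Every line was thus lower with CompE, although the differences among lines were larger than the change within a line. CYC1 fell by 0.40 ± 0.070 (SE, n = 10 pairs, limma adjusted p = 0.00692). The smallest difference, -0.07, was in P12-ICHIKAWA, and the largest, -0.67, in KOPTK1, the line with the shifted ACTB ratio. The other complex III genes did not pass: UQCRC1, a core protein, was at -0.20 ± 0.099 and UQCR10 at -0.14 ± 0.070, and UQCRC2, the other core protein, was at -0.06 ± 0.063. UQCRC1 was higher in KOPTK1 by 0.45, and without that line it fell by 0.28 ± 0.083 (limma adjusted p = 0.0384, n = 9 lines). UQCR10 had its lowest change, -0.54, in KOPTK1.

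Complex IV had 0 called genes of 11. COX5B, a regulatory subunit, was next to the threshold, with 1506 to 2777 in DMSO (median 2018) and 1267 to 2554 in CompE (median 1535). It was lower in 9 of 10 lines, all but KOPTK1, at -0.28 ± 0.083 (limma adjusted p = 0.051), and fell by 0.32 without KOPTK1 (limma adjusted p = 0.0206, n = 9 lines). Its bright probe sets gave nearly the same change, between -0.28 and -0.29, and a dim one 0.14. COX7B was at -0.16 ± 0.067 and COX5A at -0.17 ± 0.074, both with the lowest change in KOPTK1 (-0.44 and -0.68). COX4I1, the main form of the subunit that binds ATP, was at 0.09 ± 0.060, the highest of the complex. COX6A1, COX7A2, COX8A and COX6B1, the ubiquitous partners of tissue-specific forms, were at -0.14, -0.07, -0.05 and 0.03. COX7A2L, a relative of COX7A2 that was counted with complex IV by its symbol, was at -0.04.

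Complex V had 1 called gene of 15, ATP5MC1. It is one of the paralogs ATP5MC1, ATP5MC2 and ATP5MC3, which encode the same mature c subunit of the proton-driven rotor behind different import sequences. ATP5MC1 ranged from 289 to 965 in DMSO (median 529) and from 268 to 721 in CompE (median 362). It was lower in 9 of 10 lines and fell by 0.40 ± 0.106 (SE, n = 10 pairs, limma adjusted p = 0.0334), with -1.07 in RPMI8402 and 0.03 in P12-ICHIKAWA. ATP5MC3 was at -0.26 ± 0.086 (limma adjusted p = 0.0707) and changed by -0.26 by its other probe set as well, which was lower in 10 lines. ATP5MC2 was at -0.06 ± 0.067, with 2628 to 3747 in DMSO (median 3193) and 2634 to 3525 in CompE (median 3107), ranges that nearly coincide.

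The changes of paralogs were compared within lines by an exact sign-flip permutation test over 10 lines, two-sided, for the 4 pairs with both members tested. ATP5MC1 changed by 0.34 log2 units more in the lower direction than ATP5MC2 (difference -0.34 ± 0.392, SD, n = 10), in 8 of 10 lines (exact p = 0.0312, adjusted over 4 pairs 0.125). The difference between ATP5MC1 and ATP5MC3 was -0.14 ± 0.332 (exact p = 0.223, adjusted 0.297), that between ATP5MC2 and ATP5MC3 was 0.20 ± 0.343 (exact p = 0.0957, adjusted 0.191), and that between COX7A2 and COX7A2L was -0.03 ± 0.219 (exact p = 0.717). None passed after adjustment, which does not show that the paralogs respond alike. With the mean of all probe sets the difference between ATP5MC1 and ATP5MC2 was -0.56 (exact permutation p, adjusted 0.00781), because a dim probe set of ATP5MC2 (mean signal 12.5, change 0.38) entered its mean; without DND41 it was -0.42 (exact permutation p, adjusted 0.0469).

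Of the remaining complex V genes, none was called over 10 lines. ATP5MG, a small subunit of the membrane part, was at 0.20 ± 0.070 (limma adjusted p = 0.0831), higher in 7 lines; 3 bright probe sets gave 0.13 to 0.20 and a dimmer one -0.004. Without KOPTK1 it was the 1 member that rose (0.23 ± 0.070, limma adjusted p = 0.0407, n = 9 lines). ATP5F1A and ATP5F1B, of the catalytic part of the enzyme, were at 0.14 ± 0.078 and -0.05 ± 0.061. ATP5F1D, of the central stalk, was at -0.21 ± 0.143 and was lower in all 9 lines other than KOPTK1, where it was higher by 1.15.

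**Figure D2:**
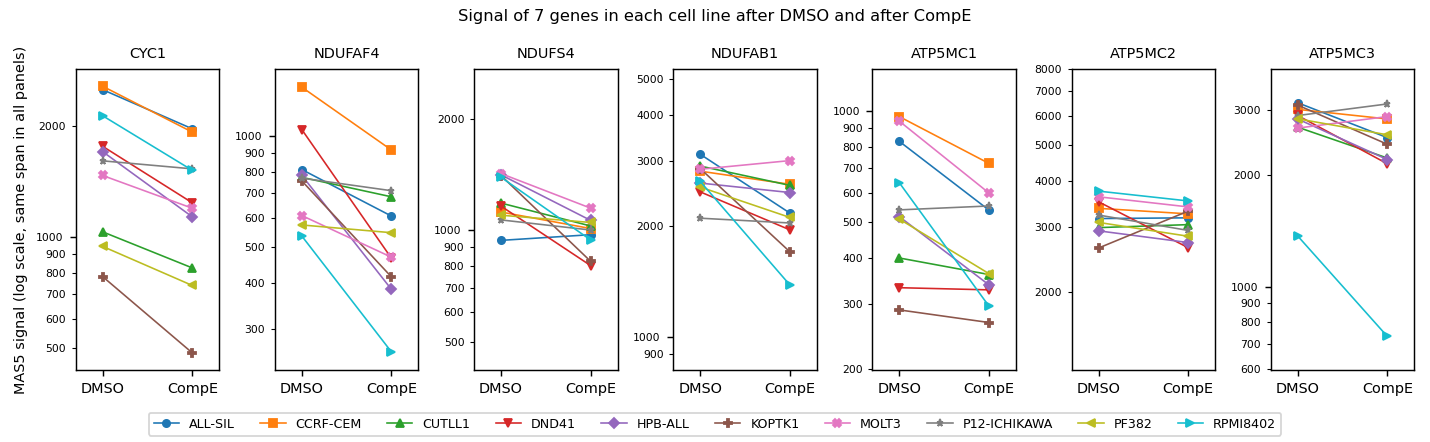
MAS5 signal (log axis with the same span in every panel) of the 5 called members and of ATP5MC2 and ATP5MC3 in each line after DMSO and CompE; each line of the plot joins the arrays of 1 cell line. CYC1 and NDUFAF4 slope down in all 10 lines, ATP5MC1 in 9, and ATP5MC2 stays between 2628 and 3747.

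The promoters of the members were searched for motifs of factors known to control respiratory genes, in windows of 300 bases (250 before to 50 after the start) from RefSeq on GRCh38.p14. Of 68 tested subunit and assembly genes, 60 had a window. The letters GCGCATGC, the core of the NRF1 motif, occurred on either strand in 13 of 60 (21.7%), against 5.80% of 6413 windows of all tested genes and 3.27% of 27305 windows in the table. AAGATGGC, the core of the YY1 motif, occurred in 10 of 60 (16.7%, against 6.50% and 3.03%), CCGGAAGT, an ETS motif as bound by GABPA, in 8 (13.3%, against 9.20% and 4.44%), and the E-box CACGTG, bound by MYC with MAX among others, in 6 (10.0%, against 10.8% and 7.43%). Overlapping matches were allowed, and a full palindromic NRF1 site matches on both strands. Most YY1 matches lay after the start, in transcribed sequence, beginning from base 11 (NDUFA9) to base 39 (ATP5PO). Those of ATP5PB and ATP5PF began before it, at -2 and -57. The median change was -0.17 for the 13 members with the NRF1 letters and -0.09 for the 47 without. It was -0.18 and -0.09 for YY1, -0.13 and -0.09 for ETS, and -0.14 and -0.11 for the E-box. These values describe the genes and were not tested.

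Stretches of 30 bases around the match are shown for the called members that hold one, and for COX5B and ATP5MC2 as members outside the threshold with the NRF1 letters; capitals mark the match.
ATP5MC1, E-box, chr17:48892779-48892808, plus strand: gaaggtccaggaCACGTGggtgggggaagc
NDUFAF4, NRF1, chr6:96897867-96897896, minus strand: ccctcacttgtGCGCATGCtccgggtgtcc
NDUFS4, YY1, chr5:53560649-53560678, plus strand: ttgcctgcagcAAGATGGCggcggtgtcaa
COX5B, NRF1, chr2:97645915-97645944, plus strand: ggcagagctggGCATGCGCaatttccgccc
ATP5MC2, NRF1, chr12:53676105-53676134, minus strand: gcccgggtcacGCATGCGCtgagccttcct
The E-box of ATP5MC1 lies at bases 5 to 10 after its start, the NRF1 letters of NDUFAF4 at 7 to 14 and the YY1 letters of NDUFS4 at 22 to 29. Those of COX5B and ATP5MC2 lie before the start, from -136 and -40. The window of ATP5MC1 holds only the E-box among these motifs, and that of ATP5MC2 only the NRF1 letters. In the window of NDUFAB1 none of the 4 motifs was found, and the table has no entry for CYC1 and ATP5MC3. A match is a string of letters and not a measured binding site.

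The lines differed in how far the whole set moved. The mean change of the 64 subunit genes was -0.12 ± 0.104 over lines (SD, n = 10) and lay below 0 in 9 lines. RPMI8402 had the lowest mean, -0.37, with 60 of 64 genes lower and 17 of them by more than 0.5 log2 units; it also held the largest fall of any line for 25 of the genes. DND41 followed at -0.19 with 53 of 64 lower. P12-ICHIKAWA stood at the other end, at 0.02, with 27 lower and 37 higher. Means of the remaining 7 lines lay between -0.12 and -0.04. In each line 41.9% to 50.5% of all tested genes were lower, so RPMI8402 (42.8% of all genes) and P12-ICHIKAWA (45.3%) differed in the subunits more than in the whole.

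Complexes moved together in RPMI8402, whose means were -0.44 for complex I, -0.41 for II, -0.34 for III, -0.22 for IV and -0.36 for V. The mean of complex I lay below 0 in 10 of 10 lines (-0.14 ± 0.117, SD), from -0.44 to -0.02, and that of complex III in 9 (-0.16 ± 0.108), the exception being P12-ICHIKAWA at 0.06. Complexes IV (-0.07 ± 0.101) and V (-0.08 ± 0.125) lay below 0 in 8 lines each. Complex II varied most (-0.10 ± 0.184), below 0 in 7 lines, on the basis of 3 genes. The ranges of the 5 complexes over lines overlapped throughout.

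**Figure D3:**
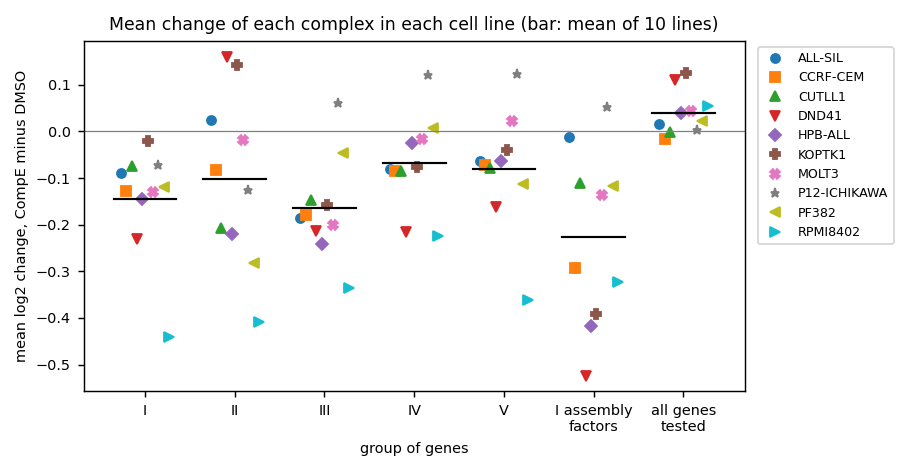
Mean log2 change (CompE minus DMSO) of the tested genes of each complex, of the complex I assembly factors and of all tested genes, with 1 symbol per cell line and a bar at the mean of 10 lines. RPMI8402 lies lowest in complexes I to V and P12-ICHIKAWA highest in complexes III, IV and V, at 0.06, 0.12 and 0.12.

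**Figure D4:**
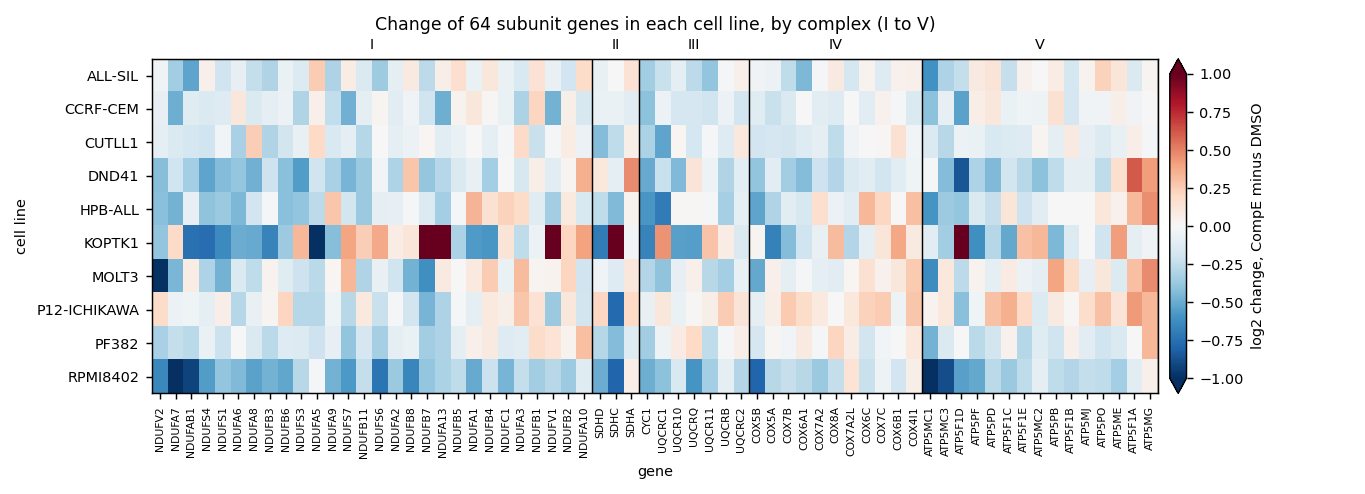
Log2 change (CompE minus DMSO) of the 64 tested subunit genes (columns, sorted within complexes I to V) in each line (rows); blue is lower in CompE, red higher, and values beyond 1 log2 unit take the end colours. The row of RPMI8402 is blue for 60 of 64 genes, and the row of KOPTK1 holds changes from -1.05 (NDUFA5) to 1.88 (NDUFB7).

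KOPTK1 differed from the other lines in pattern rather than in its mean. Its subunit changes had an SD of 0.57 across the 64 genes, against 0.14 to 0.26 in the other 9 lines; across all tested genes the SD was 0.73 in KOPTK1 and 0.33 to 0.58 elsewhere. NDUFB7 was higher by 1.88, NDUFV1 by 1.55, NDUFA13 by 1.295, SDHC by 1.16 and ATP5F1D by 1.15, and for all 5 KOPTK1 had the lowest DMSO signal of the 10 lines (72.8 for NDUFB7, against a median of 291). NDUFA5 was lower by 1.05, the largest fall in this line. Of the 64 genes, 37 were lower in KOPTK1 and 27 higher, so the named rises are not the balance of the set. KOPTK1 held the largest fall of any line for 18 genes and the largest rise for 21. NDUFA7, NDUFS3, NDUFA2, COX5B and ATP5F1D were higher in KOPTK1 and lower in all 9 other lines. KOPTK1 was also the line with the largest shift in the ACTB ratio, and the part of RNA quality in its pattern was not tested.

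Without KOPTK1, 15 of 69 members fell and 1 rose, against 6.09% and 7.3% of all genes in that fit. CYC1, NDUFAF4, ATP5MC1 and NDUFS4 were called again, and NDUFAB1 was not (-0.27, limma adjusted p = 0.0555). Members called there and not over 10 lines included NDUFA7 (-0.38), ATP5F1D (-0.37), NDUFS3 (-0.26), NDUFB7 (-0.31) and NDUFV2 (-0.31), with limma adjusted p from 0.0149 to 0.0478. NDUFA6, NDUFS1, SDHD, UQCR10, COX7B and COX5A, each with its lowest change in KOPTK1, were called neither there nor over 10 lines. Every other single line mattered too: the count of members called lower was 2 without HPB-ALL, PF382 or RPMI8402, 3 without ALL-SIL, CCRF-CEM, CUTLL1, DND41 or MOLT3, and 8 without P12-ICHIKAWA. Counts over all 7695 genes moved as well, from 249 called lower over 10 lines to 255 when P12-ICHIKAWA was left out, 199 for CCRF-CEM, 178 for ALL-SIL, 161 for MOLT3, 154 for PF382, 153 for CUTLL1, 108 for DND41, 86 for RPMI8402 and 85 for HPB-ALL. CYC1 and NDUFAF4 passed in all 10 of these fits, ATP5MC1 in 4 (without CUTLL1, DND41, KOPTK1 or P12-ICHIKAWA), NDUFS4 in 3 (without ALL-SIL, KOPTK1 or P12-ICHIKAWA) and NDUFAB1 in 2 (without MOLT3 or P12-ICHIKAWA). With the ACTB ratio as a covariate, CYC1 (-0.35, limma adjusted p = 0.0335) and ATP5MC1 (-0.53, adjusted p = 0.0278) passed, while NDUFAF4 (-0.46, adjusted p = 0.0604), NDUFAB1 (-0.25, adjusted p = 0.192) and NDUFS4 (-0.17, adjusted p = 0.251) did not.

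Before treatment the subunit genes differed less between lines than most genes, in a comparison not matched for brightness. The SD of the log2 DMSO level over 10 lines had a median of 0.26 for the 64 subunit genes and of 0.46 for all tested genes. ATP5PF varied least, with an SD of 0.12 and signals of 2088 to 2884, and SDHC most, with an SD of 0.72 and signals of 136 to 871. CYC1 (0.58) and ATP5MC1 (0.58) were among the most variable, and both were lowest in KOPTK1 and highest in CCRF-CEM. KOPTK1 was the lowest line for 16 of 64 genes, SDHC included, and the highest for 14. The ACTB ratio of its DMSO array was 3.32, against 1.02 to 1.77 in the other lines. The part of RNA quality in these levels was not tested. Cell line accounted for 76.5% of the sum of squares of the subunit genes, treatment for 6.97% and the residual for 16.6%. For all tested genes, again not matched for brightness, the shares were 87.2%, 2.98% and 9.78%. Relative to each gene's own mean over lines, 49 of 64 genes were above it in CCRF-CEM and in MOLT3 and 45 in ALL-SIL, whereas 20 were in PF382, 21 in HPB-ALL and 23 in DND41. These levels come from 1 array per line and were not tested.

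Other genes of the pathway were taken from lists of its known genes. Of 22 tested assembly factors outside the name rule, 2 fell and 0 rose, and 20 had a change below 0 (median -0.15). For this list and those that follow, the shares of all tested genes were 3.24% called lower, 3.94% called higher and 41.1% below 0. COA1, which assists complex assembly, fell by 0.36 ± 0.092 (limma adjusted p = 0.0276) and LRPPRC, which stabilises mitochondrial mRNAs, by 0.36 ± 0.095 (limma adjusted p = 0.0347), while COA4 was at -0.28 ± 0.092 (limma adjusted p = 0.0736). Of 8 genes for cytochrome c, carriers, pores and the inhibitor of the ATP synthase, 2 fell: the outer membrane pore VDAC1 by 0.33 ± 0.079 in 10 lines (limma adjusted p = 0.0248) and CYCS, cytochrome c itself, by 0.29 ± 0.074 in 9 (limma adjusted p = 0.0297). ATP5IF1, the inhibitor, was at -0.17 ± 0.082, and the carriers SLC25A5, SLC25A4 and SLC25A3 were at 0.02, 0.05 and -0.01.

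Of 13 genes of ubiquinone synthesis and electron entry outside complexes I and II, 0 were called (COQ3 at -0.27 ± 0.101, COQ8A at 0.22 ± 0.102 and PDSS1 at -0.27 ± 0.144). An unadjusted limma p under 0.05 was reached by 2 of them, COQ3 in the lower and COQ8A in the higher direction. Over all tested genes the shares were 9.93% and 15.2%. Among 14 regulators of respiratory genes and mitochondrial DNA, 1 fell. PPRC1, a coactivator related to PGC-1, fell by 0.42 ± 0.114 (limma adjusted p = 0.0383). SSBP1, which coats single-stranded mitochondrial DNA, was at -0.26 ± 0.080 (limma adjusted p = 0.0552) and the helicase TWNK at -0.24. The factors NRF1, YY1, GABPA and GABPB1 were at 0.14, -0.001, -0.23 and 0.22. Leaving out 1 line ended some of these calls: VDAC1 passed in 6 of 10 such fits, CYCS in 5, COA1 in 4, and LRPPRC and PPRC1 in 2 each. The 13 mitochondrially encoded subunits were not analysed here.

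Several members were measured more than once. Of 20 members with more than 1 probe set above the brightness limit, all probe sets pointed one way in 6. Among the named members, a dim probe set of NDUFA6 changed by 0.07 and one of SDHD by 0.16, whereas 4 probe sets of SDHC changed by -0.12 to -0.65. The second probe set of UQCRC2 changed by -0.35 and was lower in all 10 lines, unlike the -0.06 of the brighter one. The 5 called members each had 1 named probe set, so no second measurement stands behind them.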

How the data were processed

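The authors deposited 1 MAS5 intensity (signal) per probe set and array, per the submitters' processing notes; the sources used here give no version or settings. Each of the 20 arrays has a mean of 250 after trimming 2% at each end, and this scaling was kept. Of 22277 probe sets, 62 controls were left out, and 19064 others with a single annotated gene covered 11963 genes. A gene was represented by its brightest probe set (mean over 20 arrays), and genes whose mean log2 signal lay in the lowest 40% (below a signal of about 32.5) were left out. Changes on log2(signal + 16) were fitted in limma 3.58.1 (R 4.3.3) over 7695 genes with cell line as a fixed block, since the labels name the line of every array, and an intensity trend (adjusted p after Benjamini-Hochberg, two-sided).

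Whether a line's arrays come from separate cultures is not stated in the labels. Replicates are the 10 lines, so p-values reflect how much these lines vary, and their number limits the precision. The alternatives tried were other pseudocounts, filters, probe set rules, scalings and blocks, the ACTB ratio as a covariate, and leaving out lines. Members and lists were chosen with earlier results of these data known. Named genes are the called members and those next to the threshold, the 3 smallest p and the highest change of each complex, all SDH genes and CYC1, paralog pairs, up to 3 genes with the smallest p per related list, HES1, NOTCH3 and MYC; others were named after their values were seen. The fit was tested on simulated data with noise independent between genes. A true change of 0.25 log2 units was called in 8.36% of cases, 0.5 in 59.1% and 1 in 94.5%. Of the calls, 5.11% were false. A member that was not called is thus not shown to be unchanged. Promoters are those of RefSeq's GRCh38.p14; 8 of 68 genes had none in the table.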

Additional observations from a re-analysis of the deposited data

Results flagged for a closer look

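In 34 sets of 10 line values (changes of the named members and means of the complexes), 4 held a line far from the other 9 by Dixon's test. Chance gives about 1 in 20, but these sets share the same lines and some of the same genes, so they are not separate trials. The change of SDHC was 1.16 in KOPTK1, against -0.80 to 0.00 elsewhere. That of COX5A was -0.68 in KOPTK1, against -0.30 to 0.07, and that of NDUFAF1 was -0.30 in KOPTK1, against 0.07 to 0.37. The mean change of complex I was -0.44 in RPMI8402, against -0.23 to -0.02. The ACTB ratio in KOPTK1 was 3.32 in DMSO and 9.76 in CompE, and in RPMI8402 1.18 and 1.22; its part in these values was not tested.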

How the results depend on the processing

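The 5 members called lower became 3 with no filter on dim genes, 10 with a filter at the 60th percentile, 9 with arrays centred on their median, 10 with cell line as a random replicate block, 3 with the ACTB ratio as a covariate beside the replicate block and 0 with no replicate block, that is, without the pairing by line (0 of all genes were called there; 4 subunit genes had an unadjusted p under 0.05 in the lower direction). Over all genes, the count called lower was 249 of 7695 as reported, 169 of 11963 with no filter, 280 of 5587 at the 60th percentile, 340 of 7695 with centring, 265 of 7695 with the random block and 164 of 7695 with the ACTB covariate. When 1 line was left out the count ranged from 2 to 15, and the count of members called higher from 0 to 1. The median change of each complex stayed below 0 under all alternatives run and moved by less than its spread over lines, but that of complex II, over 3 genes, came to -0.02 with the mean of all probe sets. Leaving out 1 line put the difference between ATP5MC1 and ATP5MC2 between -0.42 and -0.27 and that between COX7A2 and COX7A2L between -0.061 and 0.025, the latter sign being reached without RPMI8402. With the mean of all probe sets the difference between ATP5MC1 and ATP5MC2 was -0.56 and that between ATP5MC2 and ATP5MC3 0.42, both past the threshold by the exact permutation test, and ATP5MC2 itself was at 0.16. Values near 0 changed sign without becoming calls: with median centring COX6B1 was at -0.038 and NDUFA10 at -0.036, and with the ACTB covariate they were at -0.035 and -0.043 and COX7A2L at 0.016. Leaving out 1 line put COX6B1 between -0.0049 (without KOPTK1) and 0.059 and NDUFA10 between -0.0043 (without KOPTK1) and 0.062. The number of arrays and the dimness of some probe sets limit what can be called.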
